A study of Mus musculus with 6 samples.

Results

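The 10 genes described here encode transcription factors of granulocyte formation: Cebpa, Cebpb, Cebpd, Cebpe and Cebpg of the C/EBP family, and Spi1, Gfi1, Runx1, Runx3 and Bcl6. They were taken by name from 21955 genes counted in RNA of neutrophils from the dura mater, the outermost of the meninges, of wild-type mice after a social threat. In the count files they are ENSMUSG00000034957 (Cebpa), ENSMUSG00000056501 (Cebpb), ENSMUSG00000071637 (Cebpd), ENSMUSG00000052435 (Cebpe), ENSMUSG00000056216 (Cebpg), ENSMUSG00000002111 (Spi1), ENSMUSG00000029275 (Gfi1), ENSMUSG00000022952 (Runx1), ENSMUSG00000070691 (Runx3) and ENSMUSG00000022508 (Bcl6). All 10 were present in the count files and passed the filter on low counts. The 6 libraries form 2 groups, 3 labelled male and 3 labelled female, all exposed and all with the genotype WT. No unexposed library was analysed here, and the labels give neither strain nor age. The labels set the sexes against each other after exposure. Summed over 4 Y-linked genes, the level was 307 to 318 CPM (counts scaled to library size by TMM) in the libraries labelled male and 312 to 328 CPM in those labelled female, and none of the 4 differed (lowest adjusted p = 0.475 by edgeR's quasi-likelihood test). Since this goes against the label female, groups are named by their labels, and no direction below can be read as one between the sexes.

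Granulocytes arise from progenitors in which C/EBP alpha and PU.1, the product of Spi1, act together. C/EBP alpha opens the granulocytic path, Gfi1 holds back the monocytic one, and C/EBP epsilon drives the later stages in which secondary granule proteins are made. C/EBP beta takes over when infection or inflammation calls for fast production of neutrophils. C/EBP delta responds to acute inflammation, and C/EBP gamma lacks a strong activation domain and pairs with other family members. Runx1 and Runx3 bind DNA with the shared subunit encoded by Cbfb. Bcl6 is a repressor best known from germinal centre B cells and is also present in mature neutrophils.

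Start-site sequences of RefSeq (build GRCm38.p6) were matched for 7 of the 10 genes, in 11 windows of 250 bases before a start. Cebpd, Cebpe and Spi1 had no entry. A pair of windows is printed because each holds the core motif of the factor that its own gene encodes. In the Runx3 window (chr4:135120395-135120644, plus strand, the first of its starts) capitals mark every motif found. These are 2 RUNX cores (TGTGGT), which begin 134 and 126 bases before the start, and 2 CCAAT boxes at 215 and 167 bases. A motif on the opposite strand reads as its reverse complement, ACCACA for the RUNX core and ATTGG for the CCAAT box. This window overlaps an exon of the annotated gene Gm16225. In the Bcl6 window (chr16:23981284-23981533, minus strand, the second of its starts) capitals mark 2 BCL6 cores (TTCCNNGAA) that begin 168 and 88 bases before the start, and the window overlaps no annotated exon.
Runx3: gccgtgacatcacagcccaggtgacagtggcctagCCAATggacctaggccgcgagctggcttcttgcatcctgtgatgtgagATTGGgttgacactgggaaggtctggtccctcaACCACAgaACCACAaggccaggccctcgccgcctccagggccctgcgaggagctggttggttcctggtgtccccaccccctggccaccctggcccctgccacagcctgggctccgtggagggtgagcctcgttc
Bcl6: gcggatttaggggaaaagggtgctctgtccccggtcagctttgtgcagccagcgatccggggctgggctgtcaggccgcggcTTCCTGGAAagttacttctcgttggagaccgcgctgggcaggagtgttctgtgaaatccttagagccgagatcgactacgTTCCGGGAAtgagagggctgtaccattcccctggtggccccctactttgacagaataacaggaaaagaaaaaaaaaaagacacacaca

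Both strands were searched, and no 2 marked motifs overlap. Of 32851 windows of this length in the same table, 14.0% held the RUNX core and 4.06% the BCL6 core. Among the 11 windows of the factors, each of these motifs was found in 1 window. The C/EBP core TTGCNNAA was found in 1 window, the first of Gfi1, against 9.56% of all windows. The CCAAT box was found in 5 of the 11 windows (33.8% of all) and the PU.1 core GAGGAA in 2 (23.3% of all), 1 of Runx1 and 1 of Bcl6. The GFI1 core AAATCA was found in none of the 11, against 12.4% of all windows. A match describes the letters only. Neither Runx3 nor Bcl6, whose windows are shown, passed the test between the label groups described below.

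Scaled to the length of their exons, the 10 genes spanned a wide range of levels. In CPM per kilobase, as mean ± SD over all 6 libraries, Cebpe stood at 119 ± 11.5 and Spi1 at 107 ± 10.2. Their ranges overlapped, and Cebpe was above Spi1 in 4 of 6 libraries. Cebpb (49.7 ± 3.82) and Cebpa (43.0 ± 2.60) came next, also with overlapping ranges, and Cebpb was the higher in 5 of 6 libraries. Cebpd followed at 26.1 ± 1.89, Gfi1 at 22.5 ± 1.58 and Cebpg at 12.5 ± 0.629 CPM per kilobase. Cebpd was above Gfi1 within each of the 6 libraries, although their ranges overlapped. The lowest were Bcl6 (8.93 ± 0.648), Runx1 (7.95 ± 0.510) and Runx3 (5.67 ± 0.445). Bcl6 and Runx1 overlapped, while Runx3 was below Runx1 with separate ranges. Exon lengths were unions over all annotated transcripts, so the order depends on which of them these cells use.

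**Figure D1:**
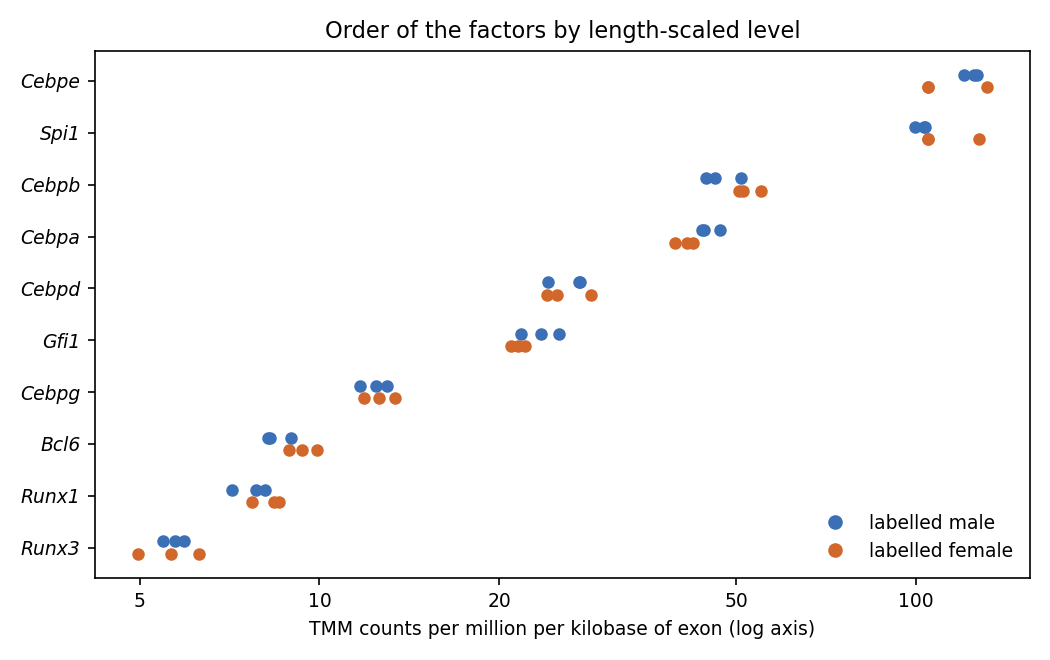
Level of each factor in CPM per kilobase of exon (horizontal log axis) in the 3 libraries labelled male (blue) and the 3 labelled female (orange). Cebpe and Spi1 lie near 100, with 104 to 132 and 99.4 to 128 over the 6 libraries, and Runx3 is lowest with 4.96 to 6.28.

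Within the C/EBP family, Cebpe made up 48.7 ± 0.981% of the summed length-scaled level in the libraries labelled male and 46.2 ± 2.81% in those labelled female (SD, n = 3). Cebpb made up 18.5 ± 1.02% and 21.3 ± 0.601%. Cebpa held 17.7 ± 0.988% and 16.8 ± 1.73%, Cebpd 10.3 ± 0.577% and 10.5 ± 0.197%, and Cebpg 4.86 ± 0.209% and 5.18 ± 0.626%. Cebpe thus held the largest share in both groups, and only the shares of Cebpb did not overlap between them, at 17.5% to 19.6% and 20.6% to 21.7%. The shares are parts of a whole, so that of Cebpb also depends on the other family members. In CPM the groups of Cebpb overlapped, and 30.9% of all genes tested had groups that did not overlap.

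None of the 10 factors passed the test between the label groups (edgeR's quasi-likelihood test, adjusted p from 0.163 to 0.909), whereas 13.9% of the 11903 genes tested did. All differences were small. The 10 log2 changes, labelled female minus labelled male, ran from -0.13 to 0.15, with 5 above 0 and 5 below. Their median absolute size was 0.127, beside 0.141 over all genes tested, and 48.1% of all genes moved further than the factor with the largest change. No 95% interval of the 10 reached beyond a difference of 1.22-fold in either direction. At an unadjusted p under 0.05 there were 3 of the 10, namely Cebpa, Cebpb and Bcl6, and 27.6% of all genes. DESeq2 and limma-voom also called none of the 10, with 1 and 2 at an unadjusted p under 0.05. In 2 of the 10, Cebpa and Spi1, the groups did not overlap, as was so for 30.9% of all genes. Counts behind these values ran from 480 (Runx3) to 6931 (Spi1) per gene and library. Whether each library stands for its own animals is not in the labels. The p-values and intervals therefore measure spread among libraries only, and part of it may be technical.

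**Figure D2:**
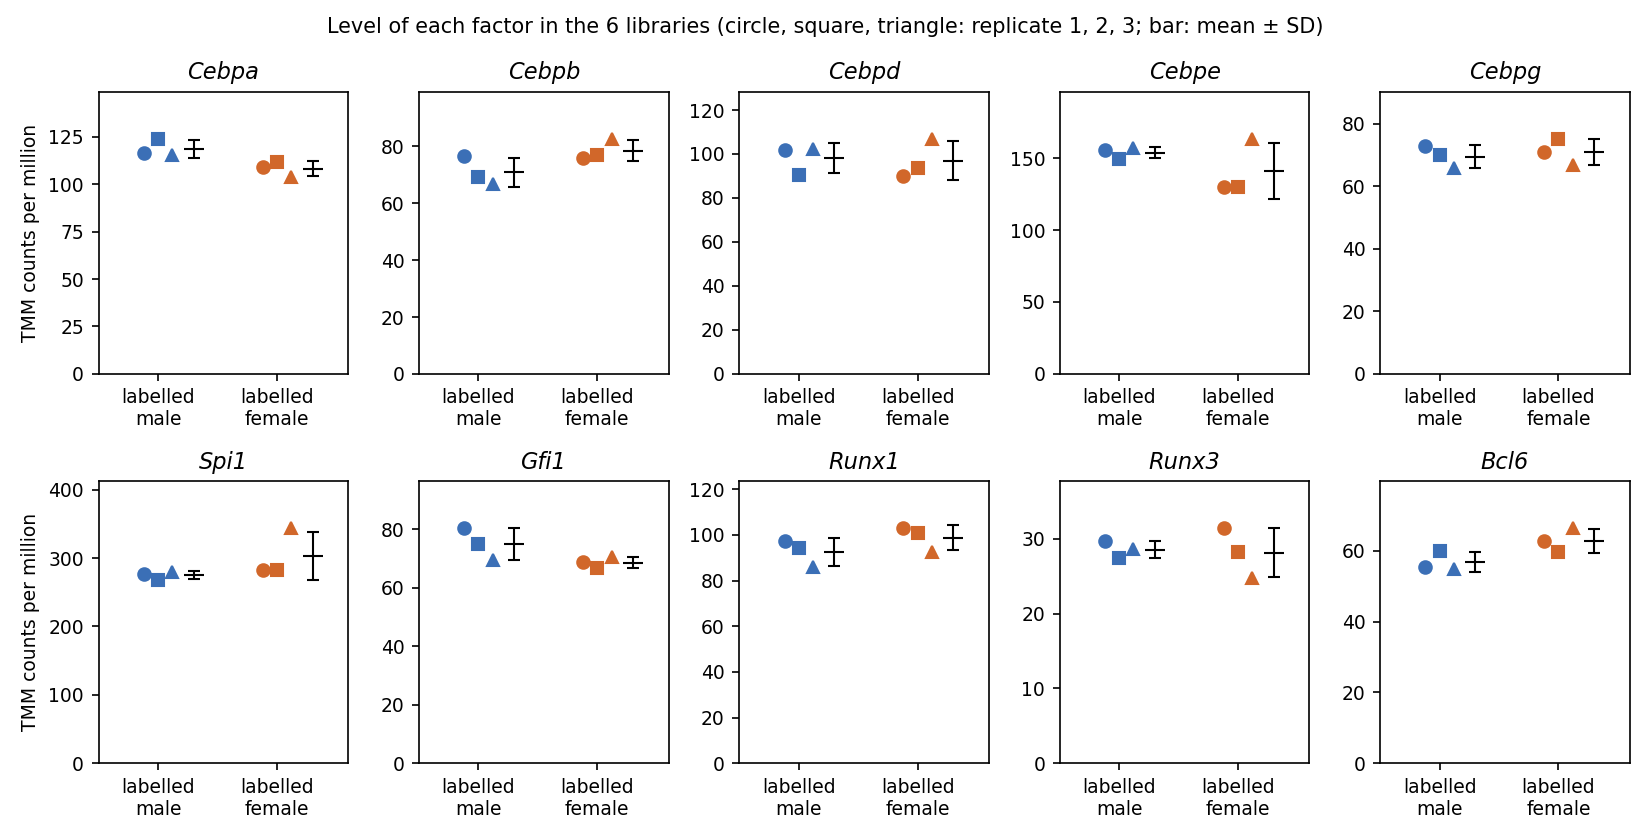
TMM-scaled CPM (vertical axes, starting at 0, each panel with its own scale) of each factor in the libraries labelled male (blue) and female (orange), with the mean ± SD of 3 beside them. The triangle of the third library labelled female stands above its group in Cebpe (163 against 129.7 and 130.0) and Spi1 (344 against 282 and 282).

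Among the early factors, Cebpa stood at 116, 124 and 115 CPM in the libraries labelled male and 109, 112 and 104 CPM in those labelled female. All 3 libraries labelled female lay below all 3 labelled male. The means were 118 ± 4.61 and 108 ± 3.87 CPM (SD, n = 3; 1.10-fold lower, 95% interval of the log2 change -0.26 to -0.01, adjusted p = 0.163). Spi1 stood at 277, 268 and 279 CPM in the libraries labelled male and 282, 282 and 344 CPM in those labelled female. The groups did not overlap, with a gap that was narrow beside the distance of the third library labelled female from the other two. The means were 275 ± 5.96 and 303 ± 35.4 CPM (1.10-fold higher, log2 interval -0.00422 to 0.28, adjusted p = 0.197). Without that library the log2 change of Spi1 was 0.04 (adjusted p = 0.607). Runx1 had 97.5, 94.3 and 85.9 CPM, then 103, 101 and 92.6 CPM. These overlapped, and the difference was 1.07-fold (log2 0.09, SE 0.067, adjusted p = 0.394).

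Gfi1, the repressor of the monocytic path, stood at 80.3, 75.0 and 69.3 CPM in the libraries labelled male and 68.6, 66.7 and 70.3 CPM in those labelled female. The third library labelled male fell inside the other group. The log2 change was -0.13 (interval -0.27 to 0.01, adjusted p = 0.232).

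Cebpe, the factor of the myelocyte and later stages, had a difference that depended on 1 library. It stood at 155, 149.5 and 157 CPM in the libraries labelled male and 129.7, 130.0 and 163 CPM in those labelled female. The first and second libraries labelled female were the lowest of the 6 and the third was the highest. Over all libraries the means were 154 ± 3.87 and 141 ± 19.3 CPM (1.09-fold lower, log2 interval -0.28 to 0.03, adjusted p = 0.296). Without the third library labelled female, Cebpe fell 1.18-fold (log2 -0.24, SE 0.053, adjusted p = 0.000712). In that fit, where 22.4% of all genes passed, it was the only one of the 10 that did. The other 9 had adjusted p from 0.0994 to 0.68 there.

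The third library labelled female was the highest or the lowest of the 6 for 7 of the 10 factors. It was highest for Cebpb, Cebpd, Cebpe, Spi1 and Bcl6 and lowest for Cebpa and Runx3. Over all genes tested it held 1 of these places in 37.6%, as did the first library labelled female, which did so for 4 of the factors. The same library held the highest level of many granule and neutrophil genes. It was the highest of the 6 for 14 of 17 genes listed for secondary and tertiary granules, 6 of 11 listed for primary granules and 7 of 12 genes of proliferation. The same held for 9 of 10 neutrophil markers and 10 of 15 acute targets of C/EBP beta and delta, and it was the highest for 20% of all genes tested. Ngp, a granule protein, had 20748 CPM there, against 15634.5 to 17288 CPM in the other 5 libraries. Whether the content of that library bears on its Cebpe and Spi1 levels was not tested.

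Of the factors tied to inflammation, Cebpb stood at 76.6, 69.1 and 66.9 CPM in the libraries labelled male and 75.9, 77.0 and 82.6 CPM in those labelled female. The groups overlapped through the first library labelled male. The means were 70.9 ± 5.11 and 78.5 ± 3.57 CPM (1.11-fold higher, log2 interval 0.00491 to 0.29, adjusted p = 0.165). Cebpd had 102, 90.5 and 102 CPM, then 90.0, 93.7 and 107 CPM, with wide overlap (log2 -0.02, SE 0.072, adjusted p = 0.886). Cebpg had 72.9, 69.9 and 65.8 CPM, then 70.8, 75.2 and 66.9 CPM, and also overlapped (log2 0.03, SE 0.068, adjusted p = 0.827). The 95% interval of Cebpd ran from 1.13-fold lower to 1.09-fold higher, and that of Cebpg from 1.08-fold lower to 1.13-fold higher.

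The ratio of Cebpb to Cebpe sets a C/EBP of inflammatory granulopoiesis against that of the myelocyte stage within each library. On CPM without length scaling it was 0.493, 0.462 and 0.426 in the libraries labelled male and 0.585, 0.592 and 0.506 in those labelled female. All 3 libraries labelled female were above all 3 labelled male. The mean ratios were 0.461 ± 0.0336 and 0.561 ± 0.0482 (SD, n = 3), a 1.22-fold difference with a 95% interval of 1.01 to 1.46. The exact two-sided permutation p was 0.1, the smallest that this test can give with 3 against 3. The interval, which assumes normal log2 ratios, leaves out a ratio of 1, so the outcome at a threshold of 0.05 depends on that assumption. Without the third library labelled female the log2 difference was 0.36, and without the third labelled male it was 0.23.

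Of the factors that also act in lymphocytes, Runx3 had 29.7, 27.4 and 28.7 CPM, then 31.4, 28.2 and 24.8 CPM (log2 -0.02, SE 0.095, adjusted p = 0.909). The libraries labelled female spanned those labelled male on both sides. Bcl6 had 55.5, 60.0 and 55.0 CPM, then 62.7, 59.6 and 66.4 CPM. Only the second libraries of the groups overlapped. The means were 56.8 ± 2.77 and 62.9 ± 3.42 CPM (1.11-fold higher, log2 interval 0.00128 to 0.29, adjusted p = 0.177). B cell markers were lower in the libraries labelled female. Their sum over 11 genes was 293 to 356 CPM in the libraries labelled male and 177 to 245 CPM in those labelled female, and 7 of the 11 fell. Over 11 genes of T and NK cells the sums were 158 to 185 and 150 to 183 CPM, and Cd4 alone fell (log2 -0.55, adjusted p = 0.0112), a call that leaving out male replicate 2 ended (0 called, adjusted p = 0.0816). Nkg7, the most abundant of the T and NK cell genes, had a log2 change of -0.00615 (adjusted p = 0.964). The part of either cell type in the levels of Runx3 and Bcl6 was not tested. In bulk RNA, fewer cells of a type and less RNA per cell cannot be told apart.

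**Figure D3:**
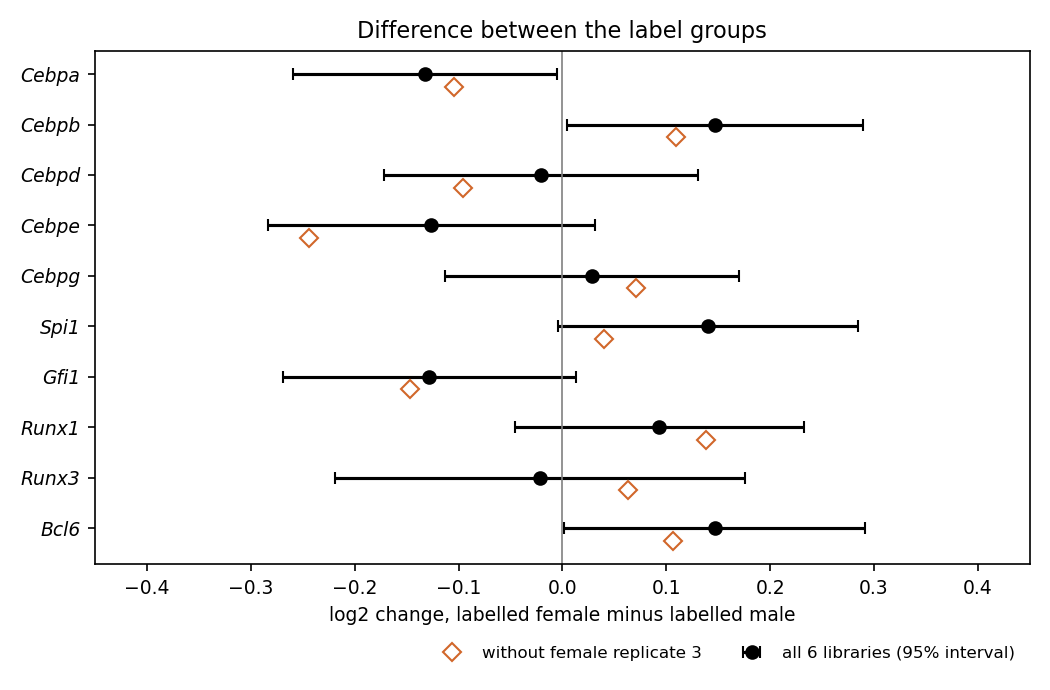
Log2 change of each factor, labelled female minus labelled male (horizontal axis), with its 95% interval over all 6 libraries (black) and its value without the third library labelled female (open diamonds). All black points lie between -0.13 and 0.15, and the diamond of Cebpe moves to -0.24.

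Genes that act around the 10 factors were read from companion lists in the same fit. Over all genes tested, 7.29% rose and 6.62% fell. Of 18 growth factor receptors and signalling genes, 5 rose and 3 fell (median log2 -0.04). Csf3r, the receptor of the granulocyte growth factor G-CSF, rose from 312 ± 15.4 to 438 ± 38.4 CPM (1.40-fold, adjusted p = 2.32e-05). Socs3, the feedback inhibitor of that receptor, rose 1.49-fold from 36.8 ± 1.36 to 54.6 ± 2.82 CPM (adjusted p = 1.54e-05). Il3ra, a subunit of the interleukin 3 receptor, fell by 0.40 on the log2 scale (adjusted p = 0.00884), which no longer passed when male replicate 1 (adjusted p = 0.0519) or else female replicate 2 (0.0554) was left out. Ptpn6, a phosphatase that restrains cytokine receptors, had a log2 change of -0.03 (adjusted p = 0.817). Without male replicate 1, 2 or 3 there were 3 that rose, and 0 fell without male replicate 1 and 1 without male replicate 3 or female replicate 2.

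Of 39 other lineage regulators tested, 13 fell and 1, Ets2, rose (1.39-fold, to 243 ± 27.2 CPM), while 25 did not pass. Of all 39, 18 had log2 changes above 0 and 21 below, with a median of -0.08. Without female replicate 3, 12 fell and 6 rose. Id1 and Id3, inhibitors of helix-loop-helix factors, fell by 0.72 (adjusted p = 1.09e-05) and 0.88 (adjusted p = 0.00684) on the log2 scale. Irf4, a factor of lymphocytes and dendritic cells, fell 1.73-fold from 54.0 ± 5.83 to 31.3 ± 0.712 CPM (adjusted p = 1.10e-06). Klf4 fell 1.41-fold from 597 ± 7.75 to 423 ± 13.9 CPM, Irf8 1.23-fold from 399 ± 12.6 to 325 ± 2.93 CPM, and Egr1 1.46-fold. Runx2 fell by 0.25 on the log2 scale (adjusted p = 0.0106), a call lost without female replicate 2 (adjusted p = 0.0661), male replicate 2 (0.0542) or male replicate 3 (0.101). Cbfb, the shared subunit of the Runx factors, had 226 ± 4.06 and 248 ± 10.4 CPM (log2 0.13, adjusted p = 0.134). Ikzf1, a zinc finger factor of lymphoid and myeloid cells, had a log2 change of 0.08 (adjusted p = 0.401). Markers of dendritic cells, a cell type that expresses Irf8 and Irf4, summed to 651 to 656 CPM in the libraries labelled male. In those labelled female they summed to 422 to 441 CPM, with 8 of 11 lower. The most abundant of them, the MHC class II gene H2-Ab1, fell by 0.66 on the log2 scale. The part of dendritic cells, or of B cells, whose markers were also lower, in these decreases was not tested.

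Of 21 genes of C/EBP partners and modifiers, 2 rose and 5 fell (median log2 -0.10). Trib1 and Cop1, which together direct C/EBP alpha to degradation, were the 2 that rose. Trib1 rose 1.22-fold from 310 ± 7.84 to 379 ± 38.6 CPM (adjusted p = 0.00586). Cop1 rose 1.14-fold, a call lost without any 1 of the 6 libraries other than female replicate 3 (adjusted p = 0.0675 to 0.145). Ddit3, a stress-induced C/EBP that blocks DNA binding of its partners, fell 1.46-fold from 37.7 ± 2.44 to 25.7 ± 1.70 CPM (adjusted p = 0.000163). Atf3 fell 1.47-fold (adjusted p = 2.14e-06) and Jun by 0.41 on the log2 scale (adjusted p = 3.85e-05), while Fos had a log2 change of -0.09 (adjusted p = 0.338). Only 1 gene rose when any library other than female replicate 3 was left out, and 3 fell without male replicate 1.

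The genes that the factors are known to control did not share 1 direction. Of 11 genes listed for primary granules, 3 rose and 1 fell (median log2 0.12). Most are products of the stage at which Cebpa, Spi1, Runx1 and Gfi1 act. Hp, 1 of the 3 that rose, is not particular to that stage. Ctsc, the protease that activates granule serine proteases, rose from 401 ± 9.48 to 482 ± 18.0 CPM (log2 0.27, adjusted p = 0.00268). The calls of Hp and Mpo were lost without single libraries. Hp (log2 0.23, adjusted p = 0.0464) had adjusted p of 0.0772, 0.195 and 0.163 without male replicate 1, 2 or 3 and 0.0803 without female replicate 3. Mpo (log2 -0.21, adjusted p = 0.0315) had 0.137, 0.106 and 0.107 without male replicate 1, 2 or 3 and 0.144 and 0.0606 without female replicate 1 or 2. The lysozyme gene Lyz2 had a log2 change of 0.12 (adjusted p = 0.342). Without male replicate 1, 2 or 3 only 1 gene of the list rose, and the call of the 1 that fell did not hold without any library but female replicate 3.

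Of 17 genes listed for secondary and tertiary granules, many of them driven by Cebpe, 7 rose and 0 fell by edgeR (median log2 0.15). At an unadjusted p under 0.05, 8 were higher and 0 lower, and DESeq2 and limma-voom called 0 lower. Mmp8 rose 1.95-fold from 576 ± 36.1 to 1121 ± 90.1 CPM and Mmp9 1.70-fold from 644 ± 51.6 to 1095 ± 116 CPM. Arg2, also among the 7, rose by 1.39 on the log2 scale, from 3.55 ± 0.844 to 9.31 ± 0.712 CPM. Its place among granule genes and targets of Cebpe is not established. The textbook Cebpe targets Ltf (log2 0.13, adjusted p = 0.317), Camp (0.09, adjusted p = 0.585) and Ngp (0.12, adjusted p = 0.384) did not pass, and neither did Cebpe itself. Without the third library labelled female the log2 changes of Ltf, Camp and Ngp were 0.01, -0.08 and 0.01. In that fit Cyba alone of the list fell (log2 -0.15, adjusted p = 0.0228).

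Of 15 acute targets of C/EBP beta and delta that were tested, 10 rose and 3 fell (median log2 0.25), beside Cebpb at 0.15 and Cebpd at -0.02. Il1b, which encodes an inflammatory interleukin, rose 1.99-fold from 70.7 ± 3.23 to 141 ± 11.9 CPM. Tnf fell 2.01-fold from 194 ± 21.7 to 96.4 ± 10.3 CPM. Saa3, an acute phase apolipoprotein, rose by 1.07 on the log2 scale (adjusted p = 0.0067), and Cd14 had a log2 change of 0.12 (adjusted p = 0.273). Without male replicate 1, 2 or 3 there were 5 that rose, and 6 without female replicate 3. Leaving out male replicate 1 or female replicate 1 left 1 that fell. Hp and Lcn2 stand in this list and in a granule list.

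Of 15 genes known to be repressed by Bcl6, mostly from B cells, 6 fell and 2 rose (median log2 -0.17). Cxcl10 fell by 0.90 on the log2 scale, Irf4 as given above, and Cdkn1a 1.34-fold from 103 ± 3.36 to 76.7 ± 5.29 CPM. Cd44 rose 1.25-fold, and Nfkb1 had a log2 change of -0.09 (adjusted p = 0.295). Only 1 rose without male replicate 1, 2 or 3 or female replicate 2. Of 13 genes known to be repressed by Gfi1, 5 fell and 0 rose by edgeR (median log2 -0.25), namely Id1, Id2, Egr1, Cdkn1a and Irf8. DESeq2 and limma-voom called 0 higher, as did an unadjusted p under 0.05. This list also holds Spi1, and it shares Id2 and Cdkn1a with the list of Bcl6. Of its 5 called genes, 4 (Id1, Id2, Egr1 and Irf8) are counted among the 13 other lineage regulators that fell, as are 2 of the 8 called genes of the Bcl6 list, Id2 and Irf4. Over all 11903 genes the median log2 change was 0.00163. Each median describes its list beside that value, and no list was tested as a whole.

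**Figure D4:**
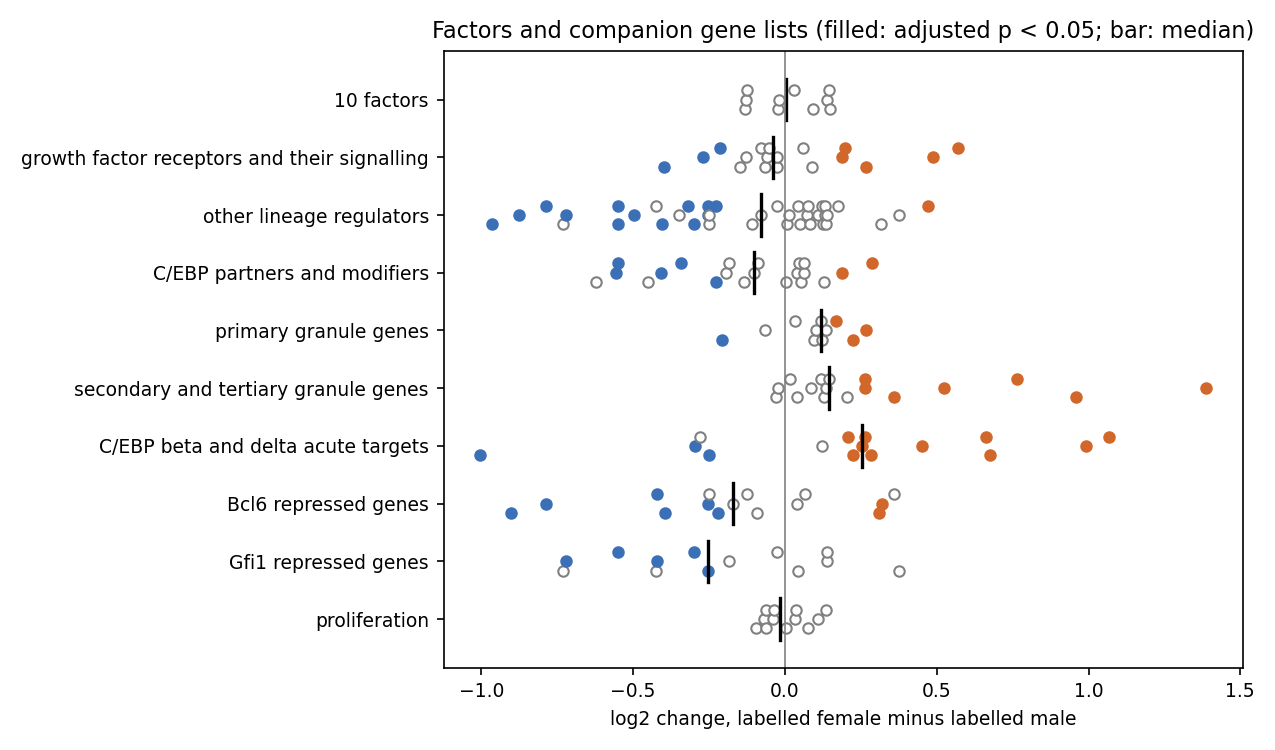
Log2 change, labelled female minus labelled male (horizontal axis), of the 10 factors and of each gene tested in 9 companion lists, with filled points at an adjusted p under 0.05 and a bar at each median. The 10 factors and the 12 proliferation genes show open points only, and the secondary granule list has 7 filled points to the right.

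The labelled cell type was read from its markers. S100a9, a calcium-binding protein of neutrophils, had 15660 ± 1086 and 19052 ± 2431 CPM, and the summed level of 10 neutrophil markers was 27661 to 30702 CPM in the libraries labelled male and 33623 to 42712 CPM in those labelled female, with 9 of 10 higher. Of these 9, 5 (Csf3r, Mmp8, Mmp9, S100a8 and S100a9) are also counted in the companion lists above, so the markers are not a separate measure from them. The increase of S100a9 itself (adjusted p = 0.0284) did not hold without male replicate 1, 2 or 3 (adjusted p = 0.0764, 0.148 and 0.1). Transcripts of dividing and immature cells were present in all libraries. The proliferation gene Mki67 had 987 ± 15.7 and 1011 ± 87.8 CPM, and 0 of 12 proliferation genes passed by edgeR, with 1 at an unadjusted p under 0.05 and 0 by DESeq2 or limma-voom. Without female replicate 3, 1 rose and 2 fell. Myb, a factor of progenitors, had 213 ± 7.70 and 225 ± 22.3 CPM, and of 9 stem and progenitor markers 1 rose and 1 fell (2 rose without female replicate 3, and 0 fell without male replicate 1 or 3). The 1 that fell, Flt3, is also counted among the growth factor receptors and the dendritic cell markers that fell. Likewise, Pax5 is counted among both the B cell markers and the other lineage regulators that fell. Markers of monocytes and macrophages summed to 2261 to 2332 and 2480 to 2533 CPM over 12 genes, 2 higher and 1 lower, with 1 higher when male replicate 2 or 3 or female replicate 1 or 2 was left out. Ly6c2, the most abundant of them, had a log2 change of -0.04. Those of eosinophils, basophils and mast cells summed to 332 to 371 and 319 to 351 CPM over 10 genes. None was called by edgeR, where 2 were lower and 2 higher at an unadjusted p under 0.05, and DESeq2 called 1 lower. In edgeR 2 were lower with upper-quartile factors, with the replicate block or without mitochondrially encoded genes, and 1 was lower with no filter or with that of 10 CPM. Leaving out female replicate 3 gave 1 higher and 1 lower, and leaving out male replicate 1 or female replicate 2 gave 1 lower. The basophil protease Mcpt8 had a log2 change of -0.18 (adjusted p = 0.0538). Erythroid markers summed to 19.5 to 24.7 and 36.2 to 66.0 CPM (4 of 7 higher, with Hbb-bs at log2 1.54), and markers of fibroblasts and vessels to 71.7 to 76.3 and 60.9 to 70.7 CPM (1 of 6 higher, with Pecam1 at log2 -0.20 and adjusted p = 0.114, and 1 lower without male replicate 1, female replicate 2 or female replicate 3). Among the markers, Tpsb2 of mast cells was at 0 counts in every library. Mitochondrially encoded genes took 10.7% to 13.1% of counts in the libraries labelled male and 6.42% to 8.49% in those labelled female. The part of any of these in the results above was not tested.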

How the data were processed

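The data are poly-A RNA libraries of dural neutrophils, 3 labelled male and 3 labelled female. The authors deposited raw counts per Ensembl gene, whole numbers with no normalization. Per the submitters' processing notes, cutadapt 1.15, HISAT2 2.0.5 and the genome GRCm39 were used, though their roles are not stated. Counter and strand setting are not stated in any label or header. Exons of 7 of the 10 genes overlap a gene on the opposite strand in GENCODE M21 (GRCm38). Reads of such pairs cannot be told apart if strand was ignored in the counting. Exons of Cebpg also overlap Gm44836 on the same strand. Library totals ran from 17098026 to 20778410 counts. Symbols were found for 21847 identifiers, and exon lengths came from GENCODE M21.

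Counts were fitted across all genes with edgeR 4.0.16 in R 4.3.3 (TMM scaling, genes kept by filterByExpr at a minimum of 10 counts, quasi-likelihood test, label group as the only term), with Benjamini-Hochberg adjustment over 11903 genes and a threshold of 0.05. SEs came from the change and its F statistic, and the 95% intervals from the SE and the moderated degrees of freedom. The interval of the Cebpb to Cebpe ratio assumes normal log2 ratios with a pooled SD. Each library counted as 1 replicate. No pair in a group matched within sampling noise (3.82 to 14.0 as chi-square over its degrees of freedom). This does not show that the libraries came from different animals. The procedure was tested on simulated data.

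The 10 factors, the companion lists and the marker lists were chosen with earlier results of these data known. Named were all 10 factors and, per companion list, the 3 largest called changes (mean log2 CPM 1 or more) with the most abundant uncalled gene, and per marker list the most abundant gene, 1 of which is not reported here. A rule for genes of similar pattern applied to called factors only, and gave none. Genes named outside these rules (Klf4, Irf8, Ets2, Runx2, Cbfb, Trib1, Cop1, Ltf, Camp, Lcn2, Cyba, Cd44, Id2, S100a8, Cd4, Flt3 and Pax5) were chosen after their values were seen. The alternatives tried were edgeR with size factors of DESeq2 or of the upper quartile, limma-voom (limma 3.58.1), DESeq2 1.42.0, other filters, the replicate number as a block, no mitochondrially encoded genes, and leaving out each library. Counts at an unadjusted p were added after seeing the data. Cxcr2, Clec4d, Ighm, Trac and Trbc1 of the marker lists are not analysed here.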

Additional observations from a re-analysis of the deposited data

How the results depend on the processing

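The count of 0 factors called higher held under all 14 alternatives, and that of 0 called lower under 13. When 1 library was left out, the number called lower ran from 0 to 1, the 1 being Cebpe without female replicate 3. Of 140 pairs of a factor and an alternative, 131 kept direction and side of the threshold, 8 changed sign and 1 gained a call. All 8 sign changes were of small, uncalled values when 1 library was left out. The log2 change of Cebpd ran from -0.10 to 0.030, that of Cebpg from -0.012 to 0.071 and that of Runx3 from -0.11 to 0.063. The cause was not tested. The log2 difference of the Cebpb to Cebpe ratio ran from 0.23 to 0.36 when 1 library was left out. With the replicate block 0 factors were called, with a lowest adjusted p of 0.138, and the paired ratio difference was 0.28 with an exact p of 0.25, the smallest that 3 pairs allow. The deviations of same-numbered libraries correlated at -0.035, 0.15 and 0.081, and those of libraries with different numbers at -0.17 to 0.076. Not every library correlated best with its own number. With 3 libraries a group, correlations this weak cannot decide whether the numbers pair the libraries, and the labels do not say. The block moved the count of called genes from 1656 to 1921. Leaving out 1 library took that count to between 906 (without male replicate 3) and 2708 (without female replicate 3). With 3 libraries a group, the 95% intervals of the factors allow differences of up to 1.22-fold.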
